A study of Caenorhabditis elegans with 17 samples.

Results

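The endoplasmic reticulum unfolded protein response was followed through 10 genes, ire-1, xbp-1, atf-6, pek-1, hsp-3, hsp-4, enpl-1, pdi-1, pdi-2 and crt-1, of 26786 genes in the deposited expression table of this Caenorhabditis elegans study. They were chosen by name, and all 10 were found and passed the filter on low values. Values are FPKM, the fragments of a gene scaled by its transcript length and by the mapped fragments of the library, with 1 value per gene and library. Every animal carried rmIs133 [unc-54p::Q40::YFP], a polyglutamine stretch fused to a yellow fluorescent protein and driven by the promoter of unc-54, a myosin gene of body wall muscle, so there was no group without the transgene. Whole day 1 adults were collected after 96 h at 20 °C on HT115 (DE3) bacteria carrying 1 of 4 RNAi feeds: L4440, the empty-vector control (5 libraries), ash-2 RNAi (4), hsf-1 RNAi (4), or ash-2 + hsf-1 RNAi (4, called double RNAi here). ash-2 encodes a subunit of the complex that methylates histone H3 at lysine 4, and the product of hsf-1 is the transcription factor of the heat shock response. For ash-2 and double RNAi the parents too were raised on the ash-2 clone, while the labels say this of no other group, so the parents' feed cannot be told apart from the animals' own in these groups. Libraries are named by the biological replicate number of their titles.

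The unfolded protein response adjusts the folding capacity of the endoplasmic reticulum (ER) to its load of unfolded protein. In C. elegans it has 3 membrane sensors. IRE-1 is a kinase and ribonuclease that splices xbp-1 mRNA so that it encodes an active transcription factor, PEK-1 is a kinase that slows translation by phosphorylating eIF2 alpha, and ATF-6 is a membrane-held transcription factor. Their targets include the lumenal chaperones of the BiP type, HSP-3 and HSP-4, and hsp-4 is widely used in worms as a reporter of the response. The gene-level FPKM of xbp-1 does not separate spliced from unspliced mRNA, so the activity of IRE-1 was not measured here.

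The differences that passed the test were all in genes of lumenal folding proteins. hsp-3 and hsp-4 were lower in double RNAi than in ash-2 RNAi, together with pdi-2, and hsp-3 was also lower in double RNAi than in L4440. pdi-1 was higher in ash-2 RNAi than in L4440. In hsf-1 RNAi every hsp-3 and every hsp-4 value lay below every L4440 value, but neither gene passed the test. No sensor gene and no xbp-1 difference passed. Each of these calls was lost under at least 1 alternative, as given beside it.

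Libraries that stood apart come first. In 4 of them (ash-2 replicates 1 and 3, hsf-1 replicate 4 and double RNAi replicate 3) 9401 to 10745 genes reached an FPKM of 1, against 11170 to 13066 in the other 13. In those 4, the median deviation from the L4440 mean was -1.29 to -0.42 on the log2 scale for 1268 genes with transcripts of at least 3 kb. For 4256 genes with transcripts under 1 kb it was -0.51 to -0.14. They are called the few-detected libraries below. Double RNAi replicate 4 stood apart in another way: its summed FPKM of 5 hypodermis markers was 597.8, against 1402 to 2582 in the other 16 libraries, and that of 5 germline markers was 573.5, against 784.3 to 1123. Of the RNAi targets, ash-2 had 2.04 to 8.68 FPKM in ash-2 RNAi and 3.92 to 11.6 in double RNAi, against 14.1 to 19.1 in L4440, and hsf-1 had 7.33 to 15.1 in hsf-1 RNAi and 6.05 to 11.7 in double RNAi, against 26.5 to 33.8 in L4440. Each target was below L4440 in every library that was fed its clone. ash-2 was also at 5.57 in hsf-1 replicate 4, a few-detected library not fed the ash-2 clone and was 16.8 to 17.4 in hsf-1 replicates 1 to 3. The lowest ash-2 values in ash-2 and double RNAi, 2.04, 2.57 and 3.92, were those of the other few-detected libraries; the part of library quality in them was not tested. hsf-1 had 16.3 to 41.5 FPKM in ash-2 RNAi, which was not fed its clone.

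The sensors had the lowest levels of the 10 genes. FPKM is a level per transcript length, so the genes can be ordered within a library: crt-1 was highest in 15 of 17 libraries, pdi-2 in the other 2, and atf-6 was lowest in all 17. In L4440 the means were 975.5 FPKM for crt-1, 641.9 for pdi-2, 414.7 for hsp-3, 340.3 for pdi-1, 185.1 for hsp-4, 172.8 for enpl-1, 152.4 for xbp-1, 18.9 for ire-1, 7.78 for pek-1 and 3.63 for atf-6. The SDs over the 5 L4440 libraries were between 5.3% of the mean for crt-1 and 33.3% for atf-6. The L4440 ranges of hsp-4 (166.2 to 210.1), enpl-1 (149.5 to 189.5) and xbp-1 (110.7 to 193.6) overlapped, so these neighbours in the order were not separated beyond their spread. The ranges of the other neighbours did not overlap.

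**Figure D1:**
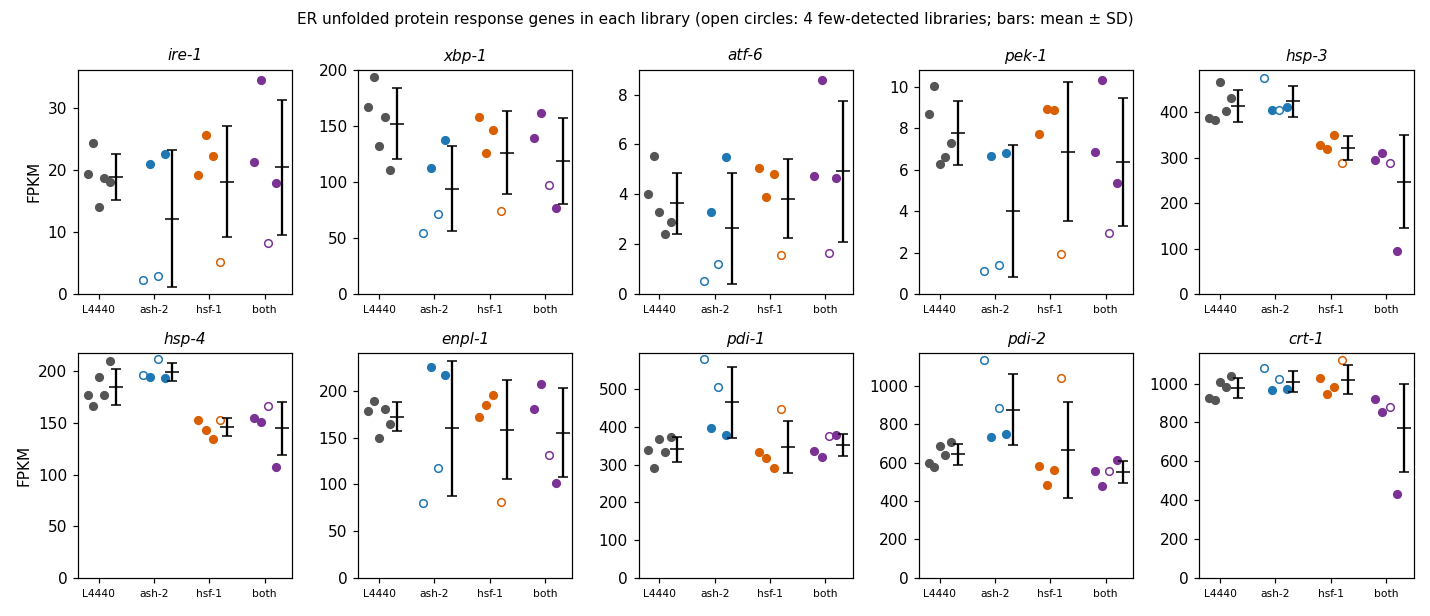
FPKM of the 10 genes in each of the 17 libraries, by RNAi group, with a linear vertical axis starting at 0 in every panel; points are libraries, open circles the 4 few-detected libraries, and bars the group mean ± SD. The open circles sit at the bottom of the ire-1, atf-6 and pek-1 panels and high in the pdi-2 panel for ash-2 and hsf-1 RNAi, and double RNAi replicate 4 is the low point for hsp-3 at 95.6.

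ire-1 (C41C4.4, chromosome II, 8112243 to 8124910, minus strand; WBcel235 here and below) had 19.4, 24.3, 13.96, 18.8 and 18.1 FPKM in L4440 replicates 1 to 5. It had 2.29, 20.9, 2.94 and 22.5 in ash-2 RNAi, 19.2, 25.7, 22.2 and 5.23 in hsf-1 RNAi, and 21.2, 34.5, 8.23 and 17.9 in double RNAi, each for replicates 1 to 4. The 4 lowest of the 17 values were those of the 4 few-detected libraries, and the remaining values of all 4 groups overlapped. ire-1 lies on the opposite strand from unc-105, which it overlaps, and whether the authors' counting used the strand is not given in the sources used here. pek-1 (F46C3.1, chromosome X, 11410176 to 11414887, minus strand) followed the same order, with 1.10 and 1.42 FPKM in ash-2 replicates 1 and 3, 1.92 in hsf-1 replicate 4 and 2.97 in double RNAi replicate 3, against 5.34 to 10.4 in the other 13. For atf-6 (F45E6.2, chromosome X, 12480948 to 12484904, plus strand) the same 4 libraries held 0.529 to 1.67 FPKM and the other 13 held 2.41 to 8.59. The longest annotated transcripts of ire-1 and pek-1 are 3401 and 3709 nucleotides, so both fall in the class of at least 3 kb that was low in these libraries. That of atf-6, at 2402 nucleotides, does not fall in that class. The part of library quality in these values was not tested.

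The transcription factor gene xbp-1 (R74.3, chromosome III, 4193809 to 4195358, plus strand) had 168, 194, 132, 158 and 111 FPKM in L4440. Its values were 54.8, 112, 71.5 and 138 in ash-2 RNAi, 158, 125.6, 147 and 74.2 in hsf-1 RNAi, and 140, 161, 97.3 and 76.7 in double RNAi. The few-detected libraries and double RNAi replicate 4 gave the 5 lowest values, and all the groups overlapped. Its longest transcript is 1446 nucleotides.

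On the log2(FPKM + 0.5) scale, used for every change below and with limma's test fitted on all 17 libraries and Benjamini-Hochberg adjustment over 13084 genes, none of the 4 genes was called at an adjusted p under 0.05 in any of the 6 contrasts. Against L4440, ash-2 RNAi gave changes of -1.21 ± 0.62 (SE) for ire-1 (adjusted p = 0.186), -1.20 ± 0.51 for pek-1 (0.111), -0.67 ± 0.49 for atf-6 (0.337) and -0.76 ± 0.29 for xbp-1 (0.0802). The median change of all tested genes in that contrast was -0.32. Without the few-detected libraries the changes in ash-2 RNAi were 0.22 for ire-1, -0.17 for pek-1, 0.25 for atf-6 and -0.27 for xbp-1, so the sign turned for ire-1 and atf-6, and none of the 4 was called in any contrast. In this contrast xbp-1 was called with quantile normalization (-0.77, 0.0418), and pek-1 with median-of-ratios scaling (-0.93, 0.0488) and with a trend on transcript length taken out of every library (-0.72, 0.0269). Without ash-2 replicate 4, 1 of the libraries with more genes detected, both were called (0.0301 for xbp-1 and 0.0463 for pek-1), and xbp-1 was also called without hsf-1 replicate 4 (0.0466). In the authors' deposited table for this contrast xbp-1 had a log2 change of -0.70 and a q of 0.0292, and it was not marked significant there.

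The levels of the sensors varied together across libraries. Pearson's r between ire-1 and pek-1, over log2(FPKM + 0.5) in all 17 libraries, was 0.979, and 0.749 over the 12 libraries left without the few-detected ones and double RNAi replicate 4. The points share the library's detection level, so this describes the libraries and is not a test.

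**Figure D2:**
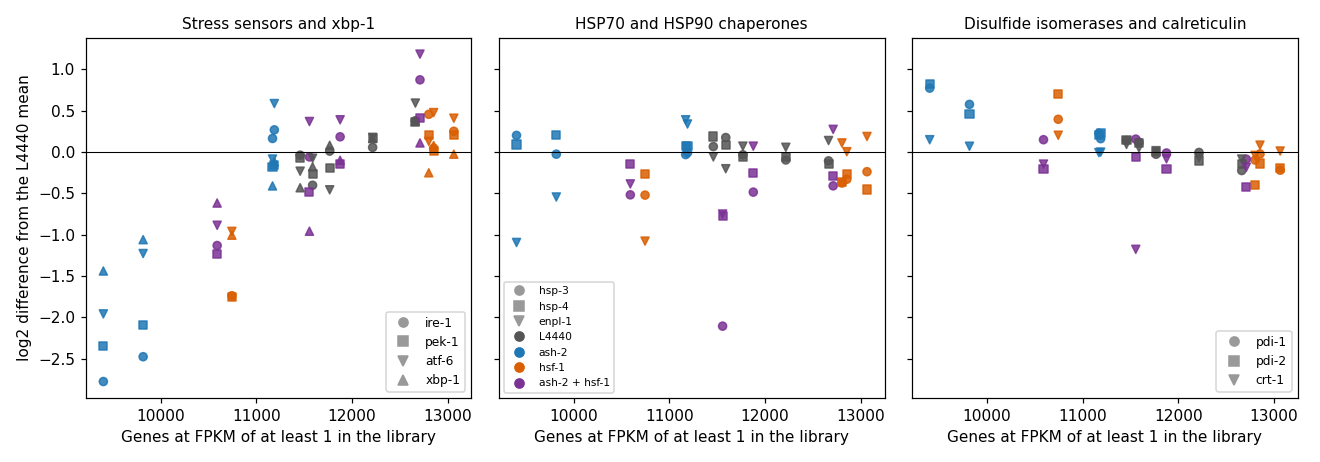
Difference of each gene from its L4440 mean, in log2(FPKM + 0.5), against the number of genes at an FPKM of at least 1 in the library; colours are RNAi groups and symbols are genes. The sensors and xbp-1 lie low in the libraries with 9401 to 10745 such genes, whereas pdi-1 and pdi-2 lie high in 3 of those 4 libraries.

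hsp-3 (C15H9.6, chromosome X, 6089033 to 6091785, minus strand) and hsp-4 (F43E2.8, chromosome II, 7350119 to 7352518, minus strand) encode the paired BiP proteins, HSP70 chaperones of the ER lumen. hsp-3 had 387, 384, 467, 404 and 433 FPKM in L4440 and 475, 405, 406 and 411 in ash-2 RNAi. It had 329, 319, 350 and 288 in hsf-1 RNAi and 295, 311, 289 and 95.6 in double RNAi. The ash-2 and L4440 values overlapped, every value of hsf-1 and double RNAi lay below every value of L4440 and ash-2 RNAi, and double RNAi replicate 4 lay far below all the rest.

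hsp-4 had 177, 166, 195, 177 and 210 FPKM in L4440 and 196, 195, 212 and 193 in ash-2 RNAi. It had 153, 143, 135 and 153 in hsf-1 RNAi and 155, 151, 166 and 108 in double RNAi. As for hsp-3, the 8 libraries fed hsf-1 RNAi all lay below the 9 that were not, although hsp-4 in double RNAi replicate 3 (166.1) and L4440 replicate 2 (166.2) nearly met. The few-detected hsf-1 replicate 4 was the lowest of its group for hsp-3 and the highest for hsp-4. The genes are paralogs, and how fragments that match both were assigned is not given in the sources used here, so a part of either value may belong to the other.

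In double RNAi against L4440, hsp-3 was lower by a log2 change of -0.88 ± 0.25 (limma, adjusted p = 0.0372), its mean being 59.7% of that of L4440, and it was the 1 member called of 10. Of all tested genes 9.08% were called in this contrast and 5.4% were called lower, so 1 of 10 is near the background. hsp-4 differed by -0.37 ± 0.12 (adjusted p = 0.066), with a mean at 78.3%. Both genes' ranges lay wholly below L4440, which held for 7.41% of tested genes. Without double RNAi replicate 4 the hsp-3 change was -0.47 (adjusted p = 0.00362) and that of hsp-4 was -0.23 (0.137). hsp-4 was called with quantile normalization (-0.34, 0.0289), without the few-detected libraries (-0.44, 0.0437) and without double RNAi replicate 3 (-0.44, 0.0412). Under the other alternatives tried hsp-4 was not called (adjusted p up to 0.763, with the length trend removed). hsp-3 kept its call without the few-detected libraries (0.0268). The hsp-3 call was lost when any 1 of the 5 L4440 libraries was left out (adjusted p of 0.0628 to 0.0804), with no filter (0.0656), with median-of-ratios scaling (-0.81, 0.119), with the length trend removed (0.171), and when only the groups compared were fitted (0.104). The median over the 10 genes was -0.29, against -0.07 over all tested genes.

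In hsf-1 RNAi against L4440, no member was called, while 10.6% of tested genes were (1391 genes, and 2846 at an unadjusted p under 0.05). hsp-3 and hsp-4 were the members whose ranges did not overlap, both lower, as were 6.92% of tested genes. Their means were 77.5% and 78.8% of L4440, with changes of -0.37 ± 0.25 (adjusted p = 0.475) and -0.34 ± 0.12 (0.0833). This outcome depended on the libraries fitted and on the scaling. Double RNAi replicate 4 adds to the shared estimate of spread: without it the changes were the same and both genes were called, with adjusted p of 0.00746 for hsp-3 and 0.00889 for hsp-4. Both were also called when only the L4440 and hsf-1 libraries were fitted (0.0239 and 0.0348). With quantile normalization hsp-4 was called (-0.38, 0.0115). Neither was called with the length trend removed (0.648 for hsp-3 and 0.584 for hsp-4). In the authors' deposited table neither had a q under 0.05 (0.335 and 0.613). The median over the 10 genes was -0.22, against -0.03 over all tested genes.

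Against ash-2 RNAi, double RNAi had 3 members lower and none higher, while 15.8% of tested genes were called and 3.76% were called lower. They were hsp-4 (-0.48 ± 0.13, adjusted p = 0.0148), hsp-3 (-0.91 ± 0.27, 0.0266) and pdi-2 (-0.65 ± 0.20, 0.0307). The means were 72.7%, 58.4% and 62.9% of those in ash-2 RNAi. The ranges of these 3 genes, and of pdi-1 and crt-1, did not overlap, the double RNAi values being lower, as held for 5.18% of tested genes. Without the 4 few-detected libraries, 3 of which belong to these groups, none of the 3 was called (adjusted p of 0.0544 to 0.0742) although hsp-3 and hsp-4 then differed by -0.98 and -0.51. Without double RNAi replicate 4 all 3 were called, with hsp-3 at -0.51 (0.00204), hsp-4 at -0.34 (0.0186) and pdi-2 at -0.71 (0.0359). With only ash-2 replicate 1 left out, or only ash-2 replicate 3, hsp-4 was the 1 member still called. With median-of-ratios scaling, or with the length trend removed, hsp-3 was the 1 member still called. With the groups compared alone hsp-3 (0.15) and hsp-4 (0.108) lost the call and pdi-2 kept it. With no filter hsp-3 (0.0501) and pdi-2 (0.0522) lost it and hsp-4 kept it. pdi-2 also lost it without double RNAi replicate 1 (0.0598) or 2 (0.0888). The median over the 10 genes was -0.18, against 0.27 over all tested genes. In the authors' deposited table hsp-3 had a log2 change of -0.78 with a q of 0.0334, and no other member had a q under 0.05.

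Between double and hsf-1 RNAi neither gene was called, while 9.71% of tested genes were (1270 genes, and 2741 at an unadjusted p under 0.05): hsp-3 differed by -0.51 ± 0.27 (adjusted p = 0.297) and hsp-4 by -0.03 ± 0.13 (0.948). The interaction contrast asks whether the effect of hsf-1 RNAi differed between animals with and without ash-2 RNAi. No member was called in it by limma, with adjusted p from 0.698 to 0.854 and 14 of 13084 genes (0.107%) called, against 833 at an unadjusted p under 0.05. The hsp-3 interaction was -0.55 ± 0.37 and that of hsp-4 was -0.14 ± 0.17, and without double RNAi replicate 4 that of hsp-3 was -0.14 and that of hsp-4 was close to 0. Between double and hsf-1 RNAi the differences without that library were -0.11 for hsp-3 and 0.11 for hsp-4.

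**Figure D3:**
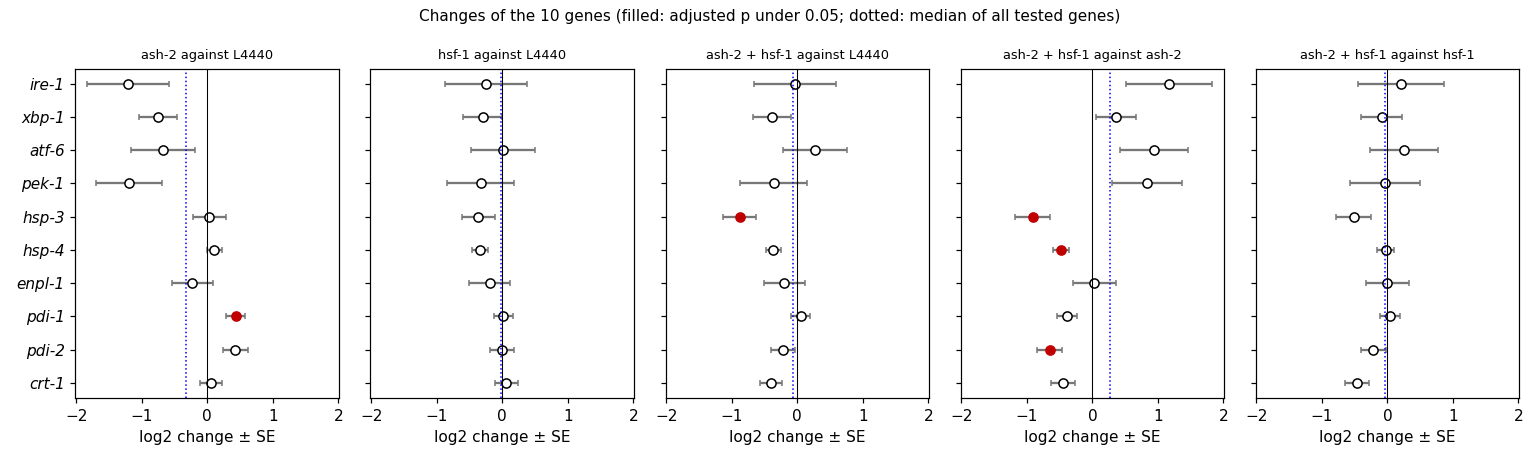
Log2 change ± SE of each of the 10 genes in 5 contrasts from the limma fit; filled points have an adjusted p under 0.05, and the dotted line is the median of all tested genes. The filled points are pdi-1 in ash-2 RNAi against L4440, hsp-3 in double RNAi against L4440, and hsp-3, hsp-4 and pdi-2 in double against ash-2 RNAi.

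The ratio of the BiP genes is free of any scaling that a library applies to both. hsp-4 divided by hsp-3 was 0.458, 0.433, 0.418, 0.438 and 0.486 in L4440 and 0.413, 0.481, 0.523 and 0.470 in ash-2 RNAi. It was 0.465, 0.449, 0.384 and 0.531 in hsf-1 RNAi and 0.524, 0.485, 0.575 and 1.126 in double RNAi. The first 3 groups overlapped, and double RNAi overlapped L4440 in its replicate 2 alone.

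The log2 ratio differed from L4440 by 0.08 in ash-2 RNAi (exact two-sided permutation test on the difference of means, p = 0.341, adjusted over 3 tests 0.512) and by 0.03 in hsf-1 RNAi (exact permutation p = 0.794, adjusted 0.794). In double RNAi it differed by 0.52 (exact permutation p = 0.0159, adjusted 0.0476; the smallest p the design allows is 0.0079). That call depended on the form of the test. The first p computed doubled the smaller tail and gave 0.0317, adjusted 0.0952 (exact permutation), and the form based on the absolute difference was settled on after that value had been seen. The difference itself rested much on double RNAi replicate 4 and was 0.24 without it. At 3 against 5 libraries no exact permutation p can be under 0.0179, or 0.0536 after adjustment when the other 2 tests have larger p, so the loss of the call there says nothing.

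**Figure D4:**
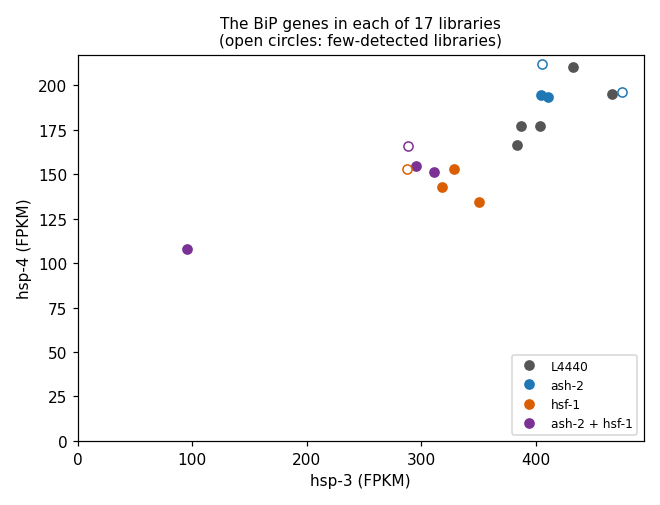
hsp-4 against hsp-3 in FPKM, one point per library, on linear axes from 0; colours are RNAi groups and open circles the few-detected libraries. The L4440 and ash-2 points lie at upper right, the 8 points with hsf-1 RNAi at lower left, and double RNAi replicate 4 stands alone at 95.6 FPKM of hsp-3.

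Sums of tissue markers also differed between the groups. The samples are whole animals, so fewer cells of a type and less RNA per cell cannot be told apart. The summed FPKM of 6 intestinal markers was 3382 to 4775 in L4440, 2184 to 3014 in ash-2 RNAi, 2264 to 3188 in hsf-1 RNAi and 1332 to 2039 in double RNAi, and none of the 6 was at 0 in any library. The intestinal sum was thus below L4440 in every library of all 3 treated groups. The 6 intestinal markers did not all go the same way. By the sign of their log2 changes against L4440, 1 rose and 5 fell in ash-2 RNAi. In hsf-1 RNAi 3 rose and 3 fell, and in double RNAi 2 rose and 4 fell. The 6 oocyte and eggshell markers summed to 3619 to 4364 in L4440, 4609 to 6040 in ash-2 RNAi, 3085 to 4189 in hsf-1 RNAi and 2688 to 5061 in double RNAi. Sums of 6 sperm markers were 214.7 to 241.1, 16.5 to 46.4, 309.7 to 498.3 and 110.4 to 167.9 in the same order, with spe-9 at 0 in at least 1 library. The part of tissue makeup in the changes of the 10 genes was not tested.

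enpl-1 (T05E11.3, chromosome IV, 11119298 to 11123155, plus strand) encodes the ER HSP90 chaperone, called GRP94 in mammals. It had 179, 190, 150, 181 and 165 FPKM in L4440, 80.4, 226, 118 and 218 in ash-2 RNAi, 173, 186, 196 and 81.2 in hsf-1 RNAi, and 181, 208, 132 and 102 in double RNAi. The low values were again those of the few-detected libraries, with double RNAi replicate 4, and the high ones were ash-2 replicates 2 and 4. It was called in no contrast. Against L4440 its change in ash-2 RNAi was -0.23 ± 0.31 (limma, adjusted p = 0.616). Without the few-detected libraries the sign turned, to 0.36 (adjusted p = 0.3), and with the length trend removed the change was 0.18 (0.304). Leaving out double RNAi replicate 4 as well, a set chosen after seeing the data, gave the same 0.36 and a call (0.0144). enpl-1 overlaps spo-11 on the opposite strand.

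pdi-1 (C14B1.1, chromosome III, 3699739 to 3701461, minus strand) and pdi-2 (C07A12.4, chromosome X, 4524155 to 4526536, plus strand) encode protein disulfide isomerases, which form and rearrange disulfide bonds in the ER. In C. elegans PDI-2 is also the beta subunit of the prolyl 4-hydroxylase that modifies cuticle collagens. pdi-1 had 338, 290, 368, 333 and 373 FPKM in L4440 and 579, 396, 505 and 379 in ash-2 RNAi. It had 333, 317, 291 and 446 in hsf-1 RNAi and 336, 319, 376 and 377 in double RNAi. All ash-2 values lay above all L4440 values, those of the few-detected replicates 1 and 3 most, while hsf-1 and double RNAi overlapped L4440.

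pdi-2 had 595, 579, 688, 639 and 708 FPKM in L4440 and 1132, 736, 882 and 750 in ash-2 RNAi. It had 581, 485, 561 and 1038 in hsf-1 RNAi and 554, 477, 555 and 615 in double RNAi. The ash-2 values again all lay above L4440, and the highest value outside ash-2 RNAi was that of the few-detected hsf-1 replicate 4. The sum of 5 markers of hypodermis, a tissue that makes cuticle collagen, was 1402 to 1677 in L4440. It was 1804 to 2218 in ash-2 RNAi and 1963 to 2376 in hsf-1 RNAi. In double RNAi, where pdi-2 was not raised, it was 2582, 2182 and 2135 in replicates 1 to 3 and 597.8 in replicate 4. By the sign of their log2 changes against L4440, 4 of the 5 markers rose and 1 fell in each treated group. The part of this tissue in the pdi-2 values was not tested.

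In ash-2 RNAi against L4440, pdi-1 was the 1 member called, higher by 0.43 ± 0.14 (limma, adjusted p = 0.0439) with a mean of 136.6% of L4440. Of all tested genes 19.6% were called, 4.17% higher and 15.5% lower. The pdi-2 change was 0.43 ± 0.19 (adjusted p = 0.117), with a mean of 136.3%. pdi-2 was called with quantile normalization (0.36, 0.0385), with the groups compared alone (0.0346) and without hsf-1 replicate 4 (0.0237), and its change was 0.22 (0.366) without the few-detected libraries. The ranges of both lay above L4440, as did those of 8.84% of tested genes. The pdi-1 change was 0.19 without the few-detected libraries (adjusted p = 0.391) and 0.78 with median-of-ratios scaling (0.111), a scaling that moved the median of all tested genes from -0.32 to -0.03. pdi-1 also lost its call with no filter (0.0647) and with the length trend removed (0.0968). It lost it without ash-2 replicate 1 (0.184) or 3 (0.138), and without any of L4440 replicates 1 to 4, hsf-1 replicates 1 and 2, or double RNAi replicate 1. In the authors' deposited table pdi-1 and pdi-2 had log2 changes of 0.45 and 0.45 with q of 0.0355 and 0.0347, and neither was marked significant. The median over the 10 genes was -0.10, with 5 up and 5 down in sign.

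In hsf-1 RNAi against L4440 the changes were 0.01 ± 0.14 for pdi-1 (limma, adjusted p = 0.966) and -0.01 ± 0.19 for pdi-2 (0.983). In double RNAi against L4440 they were 0.05 ± 0.14 (0.99) and -0.22 ± 0.19 (0.7). Against ash-2 RNAi, double RNAi had pdi-1 at 75.7% of the mean (-0.38 ± 0.15, adjusted p = 0.105) beside the pdi-2 call above. pdi-2 had the interaction with the smallest unadjusted p of the 10, -0.64 ± 0.27 (0.0289, adjusted 0.698), and -0.20 without the few-detected libraries.

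crt-1 (Y38A10A.5, chromosome V, 6098992 to 6100542, minus strand) encodes calreticulin, a calcium-binding chaperone of glycoproteins. It had 928, 918, 1009, 985 and 1038 FPKM in L4440, 1080, 969, 1022 and 973 in ash-2 RNAi, 1031, 947, 982 and 1121 in hsf-1 RNAi, and 919, 856, 880 and 430 in double RNAi. L4440, ash-2 and hsf-1 RNAi overlapped. The double RNAi values all lay below those of ash-2 and of hsf-1 RNAi, and 919 was just above the lowest L4440 value. crt-1 was called in no contrast. The changes of double RNAi were -0.40 ± 0.17 against L4440 (limma, adjusted p = 0.2), -0.45 ± 0.18 against ash-2 RNAi (0.105) and -0.46 ± 0.18 against hsf-1 RNAi (0.133). Without double RNAi replicate 4 they were -0.14, -0.19 and -0.20. Its range was the 1 of 10 that did not overlap hsf-1 RNAi, a property of 8.77% of tested genes in that direction. crt-1 overlaps smut-1 on the opposite strand.

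Ordered by group mean, hsp-3 and hsp-4 ran from ash-2 RNAi through L4440 and hsf-1 RNAi to double RNAi, and the neighbours ash-2 and L4440, and hsf-1 and double RNAi, overlapped. pdi-1 and pdi-2 were highest in ash-2 RNAi, with the other 3 groups overlapping each other. Pearson's r across the 17 libraries was 0.839 for hsp-3 with hsp-4 and 0.882 for pdi-1 with pdi-2, and over the 12 libraries without the 5 that stood apart it was 0.838 and 0.776. Over those 12 libraries hsp-4 also had r of 0.868 with pdi-2 and -0.147 with enpl-1.

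Beyond these 10, 75 further genes of ER folding, quality control and transport were listed, of which 65 were found and 64 passed the filter. In ash-2 RNAi against L4440, 3 were higher and 2 lower. Against L4440, hsf-1 RNAi had 5 lower and double RNAi 3, double against ash-2 RNAi had 9 lower, and none was higher in these 3 contrasts. Of all tested genes 4.17% were called higher and 15.5% lower in ash-2 RNAi against L4440. The shares called lower were 2.91% in hsf-1 RNAi and 5.4% in double RNAi against L4440, and 3.76% in double against ash-2 RNAi. Counted in either direction they were 19.6%, 10.6%, 9.08% and 15.8% for the 4 contrasts, so the hsf-1 count and the 9 in double against ash-2 RNAi exceed the share called lower but not the share called in either direction. The largest group of calls was in translocation into the ER: of 19 genes tested in that list, 5 fell in hsf-1 RNAi and 3 in double RNAi against L4440, 5 fell in double against ash-2 RNAi, and none rose. These counts stand beside the shares called lower given above. The median change of the list was -0.24, -0.20 and -0.29, against -0.03, -0.07 and 0.27 over all tested genes.

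The genes that fell were trap-1 to trap-4, subunits of the translocon-associated protein complex, and sec-61.A, the alpha subunit of the channel through which new proteins enter the ER. trap-1 had 602, 578, 615, 592 and 592 FPKM in L4440 and 601, 528, 561 and 546 in ash-2 RNAi. It had 388, 295, 277 and 424 in hsf-1 RNAi and 382, 323, 347 and 285 in double RNAi. As for the BiP genes, the 8 libraries with hsf-1 RNAi all lay below the 9 without it, and the separation was wider. In hsf-1 RNAi against L4440 trap-1 fell by 0.81 ± 0.12 (limma, adjusted p = 0.000305), and in double RNAi by 0.84 ± 0.12 (0.000231). Against ash-2 RNAi, it fell by 0.75 ± 0.13 in double RNAi (0.000788).

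trap-2 changed by -0.65 ± 0.13 in hsf-1 RNAi (limma, adjusted p = 0.00336) and -0.54 ± 0.13 in double RNAi (0.0133) against L4440. For sec-61.A the changes were -0.76 ± 0.18 (0.0112) and -0.84 ± 0.18 (0.00646). In double RNAi, sec-61.A had 468.5, 400.1 and 446.2 FPKM in replicates 1 to 3 and 237.5 in replicate 4. Without replicate 4 its change in double RNAi was -0.62 against L4440 (0.011) and -0.57 against ash-2 RNAi (0.0151). All 3 genes were called against L4440 in both groups without the few-detected libraries. With median-of-ratios scaling the 3 genes kept their direction in hsf-1 RNAi, at -0.80, -0.64 and -0.75, but no call (adjusted p of 0.1, 0.226 and 0.143), and in double RNAi likewise (0.139, 0.543 and 0.168). With the length trend removed, of these 6 calls only that of trap-1 in hsf-1 RNAi was kept (0.0283). sec-61.A in hsf-1 RNAi also lost its call without hsf-1 replicate 3 (0.0545). trap-3 and trap-4 were called in hsf-1 RNAi (adjusted p of 0.0368 and 0.0308), but lost the call when any 1 of hsf-1 replicates 1 to 3 was left out (0.0546 to 0.151 and 0.0549 to 0.131) or any 1 of the 5 L4440 libraries (0.0629 to 0.0767 and 0.0528 to 0.0723). They also lost it with median-of-ratios scaling (0.43 and 0.398) and with the length trend removed (0.137 and 0.118), and trap-3 did with no filter (0.0509). In double against ash-2 RNAi trap-1 kept its call under every alternative tried. There trap-2 lost its call with median-of-ratios scaling (0.0646), sec-61.A with the groups compared alone (0.0509), and trap-4 with either (0.101 and 0.051). trap-3 lost it with either (0.145 and 0.1), without the few-detected libraries (0.138) and with the length trend removed (0.0616). It also lost it when some single libraries were left out (up to 0.11).

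**Figure D5:**
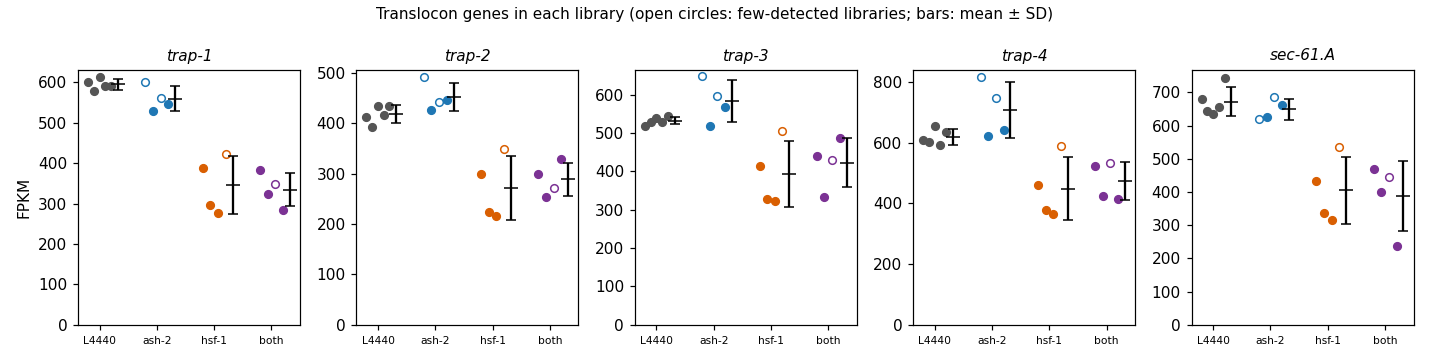
FPKM of trap-1, trap-2, trap-3, trap-4 and sec-61.A in each library, on linear axes from 0, with group mean ± SD; open circles are the few-detected libraries. For all 5 genes the hsf-1 and double RNAi libraries lie below the L4440 libraries, for trap-4 with hsf-1 replicate 4 at 591.1 just under the lowest L4440 value of 593.2.

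In ash-2 RNAi against L4440, cyn-6, which encodes a cyclophilin-type prolyl isomerase, rose by 0.66 ± 0.13 (limma, adjusted p = 0.00156), from 46.1 ± 3.0 FPKM (SD, n = 5) to 73.8 ± 13.4 (n = 4), and the ranges of 42.9 to 49.9 and 58.7 to 91.3 did not overlap. It fell by 0.74 ± 0.14 in double against ash-2 RNAi (adjusted p = 0.00139). It was called in both contrasts under every alternative tried. otub-1 and ufd-1, both in the list for ER-associated degradation, rose by 0.45 ± 0.13 (0.0246) and 0.31 ± 0.09 (0.0277), and both lost the call with median-of-ratios scaling (0.0801 and 0.052), without the few-detected libraries (0.361 and 0.178, otub-1 then at 0.21), and when single ash-2 or L4440 libraries were left out (up to 0.113 and 0.0988); otub-1 also lost it with quantile normalization (0.0504). atf-4, which encodes the transcription factor translated when eIF2 alpha is phosphorylated, fell by 0.47 ± 0.13 (0.0142). However, its change was -0.13 with the length trend removed (0.624) and -0.13 with median-of-ratios scaling (0.678). fkb-8, a prolyl isomerase gene of the FKBP family, fell by 0.99 ± 0.29 (0.0221), but the call was lost under that scaling (-0.69, 0.0868), with quantile normalization (-0.41, 0.358), with the length trend removed (0.0921), without the few-detected libraries (-0.63, 0.14), without ash-2 replicate 3 (0.103) and without L4440 replicate 1, 2 or 4 (0.0515 to 0.0563). In double against ash-2 RNAi, fkb-5, ostb-1 and cdc-48.2 fell by 0.72 ± 0.18 (0.0118), 0.46 ± 0.13 (0.0252) and 0.46 ± 0.13 (0.0273). All 3 lost the call with the groups compared alone (0.077, 0.16 and 0.127) and without the few-detected libraries (0.0772, 0.0593 and 0.0545). ostb-1 and cdc-48.2 also lost it with median-of-ratios scaling (0.0591 and 0.0861), with the length trend removed (0.0648 and 0.114) and without ash-2 replicate 3 (0.0738 and 0.083), ostb-1 without ash-2 replicate 1 (0.0709), and cdc-48.2 without ash-2 replicate 2 (0.0643), without double RNAi replicate 4 (0.0557) and with quantile normalization (0.0738). ostb-1 encodes a subunit of the oligosaccharyltransferase, and cdc-48.2 an ATPase that extracts proteins from the ER membrane. In double against hsf-1 RNAi and in the interaction, limma called none of the 64.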

How the data were processed

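The 17 libraries were made from RNA of whole animals with the TruSeq stranded mRNA protocol of Illumina, per the labels' protocols. Per the submitters' processing notes, the tools were StringTie, HISAT2, cutadapt and DESeq2, and the build was WBcel235; their versions and the columns each one made are not known. The FPKM values were made and deposited by the authors. The log2 fold changes and q-values in 3 comparison tables were also deposited by the authors, and were used only where named.

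The 10 members, the gene lists and the tests were chosen with earlier results of these data known. The test covered the 13084 genes that reached an FPKM of 1 in 4 or more libraries. log2(FPKM + 0.5), which understates changes of low genes, was fitted with limma 3.58.1 (lmFit, and eBayes with its trend and robust options, in R 4.3.3) on all 17 libraries without covariates, and p was adjusted by Benjamini-Hochberg over all tested genes in each of 6 contrasts. The BiP ratio was tested with scipy 1.17.1 in Python 3.11.15 (pandas 2.3.3, numpy 2.4.6). The limma fit was also run on simulated data with independent normal noise in each gene and library. Such data lack deviations shared across genes, as in the few-detected libraries, so that run does not show how reliable the calls are. Coordinates came from the RefSeq gene table of WBcel235 and transcript lengths from Ensembl release 115. No 2 of the 17 columns were identical. The labels call the libraries biological replicates, without naming separate cultures, so p-values measure only the spread between these libraries.

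Depth was not given. Taking the most common low value of FPKM times length in genes with 1 transcript as 1 fragment gave 17.0 to 20.4 M fragments per library. This is a weak estimate, since its window was set after seeing the values. On it atf-6 rests on 26 to 384 fragments, pek-1 on 83 to 725, ire-1 on 159 to 2183, and the other members on at least 1617. Named genes were all members, the RNAi targets, the 2 called genes with the smallest adjusted p in each pathway list and contrast, and the 5 genes most like hsp-3 and hsp-4; sec-61.A, trap-3 and trap-4 beyond rank 2 were named after their values were seen. Alternatives covered pseudocount, filter, scaling, the samples fitted, replicate blocks and left-out libraries.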

Additional observations from a re-analysis of the deposited data

Results flagged for a closer look

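Each of the 40 sets formed by a member and a group was examined for a library far from the others by Dixon's criterion at its 95% level. It picked out 5, where chance gives about 1 in 20, or 2 of the 40. hsp-3 in double RNAi replicate 4 was low, at 95.6 FPKM against 288.6 to 311.2 in the other 3, and crt-1 in the same library was low, at 430.3 against 856.4 to 919.2. pek-1 in hsf-1 replicate 4 was low, at 1.92 against 7.75 to 8.95. hsp-3 in ash-2 replicate 1 was high, at 475.2 against 404.6 to 411.1, and hsp-4 in ash-2 replicate 3 was high, at 212.1 against 193.4 to 196.4. The last 3 libraries are few-detected ones. The causes were not tested.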

How the results depend on the processing

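Members called, of 10, moved as follows. In ash-2 RNAi against L4440 (1) the count was 0 with no filter, 3 with quantile normalization, 2 with the groups compared alone, 0 without the few-detected libraries, and 0 to 3 when single libraries were left out. It stayed at 1 with median-of-ratios scaling and with the length trend removed, but that call was pek-1, lower, and pdi-1 lost its call (0.111 and 0.0968). Without the few-detected libraries and double RNAi replicate 4 the 1 call was enpl-1 (0.0144), and pdi-1 lost its call (0.152). In hsf-1 RNAi against L4440 (0) it was 1 with quantile normalization, 2 with the groups compared alone, 3 without the few-detected libraries and double RNAi replicate 4, and 0 to 2 leaving out single libraries. In double RNAi against L4440 (1) it was 0 with no filter, with median-of-ratios scaling, with the groups compared alone and with the length trend removed, 2 with quantile normalization and without the few-detected libraries, and 0 to 2 leaving out single libraries. In double against ash-2 RNAi (3) it was 1 with no filter, with median-of-ratios scaling, with the groups compared alone and with the length trend removed, 0 without the few-detected libraries, and 1 to 3 leaving out single libraries. Double against hsf-1 RNAi and the interaction stayed at 0 in every alternative run. Pseudocounts of 0.1 and 1 changed none of these counts. Removing each library's trend on transcript length, leaving out 5 libraries and doubling the permutation tail were chosen after seeing the data. With the title number as a replicate block the counts were 1, 0, 0 and 3, and with the library number as a replicate block 4, 0, 1 and 4. The first block ended the calls of hsp-3 in double RNAi against L4440 (0.0556) and of sec-61.A (0.0529) and trap-4 (0.0724) in hsf-1 RNAi. The second, in ash-2 RNAi, called xbp-1 (-0.92, 0.00591), pek-1 (-1.35, 0.0372), pdi-1 and pdi-2 (0.0178), and pdi-1 in double against ash-2 RNAi (0.0199). Same-numbered libraries had a median correlation of their deviations of 0.226 (lowest -0.689) and 0.36 (lowest -0.502), so the numbers were not taken as pairs. The hsp-4 to hsp-3 log2 ratio in hsf-1 RNAi turned from 0.03 to -0.049 without the few-detected libraries (range -0.049 to 0.11 leaving out single libraries). In double RNAi it was 0.52 with an adjusted exact permutation p of 0.0952 with the doubled tail, 0.56 without the few-detected libraries (0.107), and 0.24 to 0.65 leaving out single libraries. When a library of either group is left out, the smallest adjusted p, with the other 2 tests larger, is 0.0857 (4 against 4) or 0.0536 (3 against 5), so calls lost in those settings say nothing. In ash-2 RNAi it was 0.03 to 0.14. In ash-2 RNAi against L4440 without the few-detected libraries the signs of enpl-1, ire-1 and atf-6 turned (0.36, 0.22 and 0.25), with no call; enpl-1 kept 0.36 without the 5 libraries. The causes were not tested. Of the called genes over all tested, the share that was lower in ash-2 RNAi against L4440 was 78.8%, against 63.0% with median-of-ratios scaling, 44.7% with quantile normalization and 50.1% with the length trend removed; in double against ash-2 RNAi it was 23.9%, against 36.6%, 57.7% and 44.0%. In hsf-1 RNAi against L4440 it was 27.4%, against 46.1% with quantile normalization and 38.2% with the length trend removed, and in double against hsf-1 RNAi 86.8%, against 63.5% and 65.7%.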

Other observations

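By Pearson's r of log2(FPKM + 0.5) over the 17 libraries, the 5 tested genes most like hsp-4 were vit-3 (0.946), vit-4 (0.945), vit-2 (0.941), zipt-7.1 (0.94) and rml-1 (0.933). The vit genes encode yolk proteins, which the intestine secretes, and as close paralogs they can share reads. The 5 most like hsp-3 were lys-2 (0.941), gta-1 (0.935), hrg-7 (0.934), pes-9 (0.931) and alh-12 (0.93). The lists for hsp-3 and hsp-4 had no gene in common. These values describe the libraries, which share the RNAi groups and double RNAi replicate 4.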
